A study of Mus musculus with 6 samples.

Results

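The G1 cyclins and their kinases comprised 8 genes, the D cyclins *Ccnd1*, *Ccnd2* and *Ccnd3*, the E cyclins *Ccne1* and *Ccne2*, and the cyclin-dependent kinases *Cdk4*, *Cdk6* and *Cdk2*. They were chosen by gene name among the 43346 genes of the count table. Each name matched a single row, and all 8 were among the 17589 genes with enough counts for a test. RNA-seq measured polyadenylated RNA in primary mouse adult fibroblasts (MAFs) from the ears of female C57BL6/J mice, in 3 control samples that were sham irradiated and 3 senescent samples that had received 20 Gy of X-rays followed by 21 days in culture. All samples, controls included, were grown at 3% oxygen and treated with 100 nM dexamethasone, a glucocorticoid that synchronizes circadian clocks, for 2 hours, and RNA was collected 12 hours later. Cells were used at passages 3 to 8, and the controls' days in culture after sham treatment are not given in the sources used here, so irradiation and the 21 days that followed it cannot be told apart. The labels do not say whether replicates came from separate animals or cultures, and p-values measure the spread between these samples alone.

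Entry into the cell cycle is controlled by kinases that are inactive without a cyclin. D cyclins, which mitogens induce, bind CDK4 and CDK6, and these complexes begin the phosphorylation of the retinoblastoma protein that frees E2F transcription factors. E2F induces the E cyclins, whose complexes with CDK2 complete that phosphorylation and start DNA replication. In senescence, p16 of the INK4 family blocks CDK4 and CDK6, and p21 of the CIP/KIP family blocks CDK2.

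The fibroblast label was checked against markers. The summed level of 6 chondrocyte markers was 4705 to 5233 CPM (counts scaled to library size) in control and 335.3 to 418 CPM in senescent libraries, with all 5 tested genes lower, and that of 9 fibroblast markers was 17810 to 19900 CPM and 6709 to 8011 CPM, with 5 lower and 3 higher. Summed macrophage markers went from 8.24 to 9.01 CPM in control to 18.2 to 21.07 CPM in senescent libraries, with all 5 tested genes higher, and endothelial markers from 2.43 to 2.83 CPM to 7.38 to 8.08 CPM, with all 4 higher. Keratinocyte markers went from 2.70 to 3.45 CPM to 17.3 to 17.97 CPM, chiefly *Ivl*, the 1 of 3 tested that was higher. Markers of skeletal muscle (15.5 to 20.9 and 14.9 to 27.6 CPM, 1 of 2 tested higher) and of Schwann cells and melanocytes (4.10 to 4.45 and 3.29 to 3.75 CPM, 2 of 3 tested lower) were low as well, with *Dct* at 3 counts or fewer in every library. At the same threshold, an adjusted p under 0.05, 36.2% of all tested genes were higher and 34.1% lower. In bulk RNA, fewer cells of a type and less RNA per cell cannot be told apart, and the part of these markers' cells in the values of the 8 genes was not tested. Senescent replicate 3 differed from the other senescent libraries by 0.386 and 0.400 (root mean square log2 difference), and these differed from each other by 0.258. Leaving it out changed no call of the 8 genes at an adjusted p under 0.05, and several values without it are given below. Total counts lay between 50288454 and 61747564 in control and between 53792998 and 82229553 in senescent libraries.

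In senescent cells the D cyclins *Ccnd1* and *Ccnd2* and the kinase *Cdk6* rose, whereas *Ccnd3*, both E cyclins, *Cdk4* and *Cdk2* fell. *Ccnd1* was 3.67-fold and *Ccnd2* 2.44-fold higher by mean CPM, whereas *Ccne2* was 6.96-fold and *Cdk2* 4.44-fold lower. With p-values of edgeR's quasi-likelihood model adjusted over all tested genes (Benjamini-Hochberg), all 8 members passed 0.05, 3 of them higher and 5 lower. This is read against a background in which 70.3% of all tested genes passed, 36.2% higher and 34.1% lower. By the threshold of the study's methods, an unadjusted p under 0.05 with an absolute log2 fold change over 1, 2 members were higher and 4 lower, where 30.1% of tested genes passed, 17.8% higher and 12.3% lower. The fourth lower call, *Cdk4*, lay just past the limit, and 3 members were lower in 7 of 14 alternatives. The control and senescent values of each of the 8 genes did not overlap, as was true of 75.3% of tested genes. The members' median log2 fold change was -0.79, beside 0.01 over all tested genes.

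Promoter sequence was available for *Ccnd3*, *Ccne1*, *Cdk4*, *Cdk6* and *Cdk2* in RefSeq on GRCm38.p6, the assembly that mm10 names. *Ccnd1*, *Ccnd2* and *Ccne2* had no entry. The 250 bases before each start were searched on both strands for the E-box CACGTG, the sequence that BMAL1 and other basic helix-loop-helix factors recognize, the AP-1 site TGACTCA, the CRE TGACGTCA, the E2F sites TTTCCCGC and TTTGGCGC, the SP1 sequence GGGCGG and the CCAAT box. The *Cdk4* window is shown because it held 4 E-boxes, in capitals, at 172 to 167, 118 to 113, 98 to 93 and 11 to 6 bases before the start (chr10:127063285-127063533, plus strand).
Cdk4: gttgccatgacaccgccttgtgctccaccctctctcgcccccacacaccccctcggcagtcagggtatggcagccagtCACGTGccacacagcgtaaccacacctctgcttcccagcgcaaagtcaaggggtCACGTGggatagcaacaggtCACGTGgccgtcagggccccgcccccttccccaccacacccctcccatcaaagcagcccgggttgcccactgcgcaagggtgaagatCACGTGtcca

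Of the 32817 windows of this length, 6.02% held at least 1 E-box and 7 windows (0.0213%) held at least 4. The *Cdk6* window held 1 E-box, 220 to 215 bases before its start (chr5:3343661-3343690, plus strand). In GENCODE the gene starts earlier, at 3341485, so this window lies within the annotated gene, and 57 of its bases are *Cdk6* exon. No E-box was found in the windows of *Cdk2*, *Ccne1* and *Ccnd3*. The *Cdk2* window held 1 E2F site, found in 0.893% of windows, at 140 to 133 bases before its start (chr10:128705173-128705202, minus strand). Of this window, 105 bases are exon of the gene *Pmel*. The E2F site lies outside the longest exon-free stretch, which covers the 128 bases next to the *Cdk2* start. Capitals mark the matched letters.
Cdk6: gttctgcggcccCACGTGggtgaacccccg
Cdk2: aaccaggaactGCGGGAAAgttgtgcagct

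No AP-1, CRE or other E2F letters were found in the windows of these 5 genes. Of all windows, 4.46% held the AP-1 site, 1.55% the CRE and 0.417% the second E2F site. The SP1 sequence, which 32.7% of windows held at least once, occurred 5 times in the *Cdk2* window, 4 times in that of *Ccne1*, once in that of *Cdk4*, and 2 times and 1 time in the windows of *Ccnd3*. The CCAAT box, in 33.8% of windows, occurred in the *Cdk2* window and in 1 window of *Ccnd3*. Such matches describe sequence, and binding was not analysed here.

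**Figure D1:**
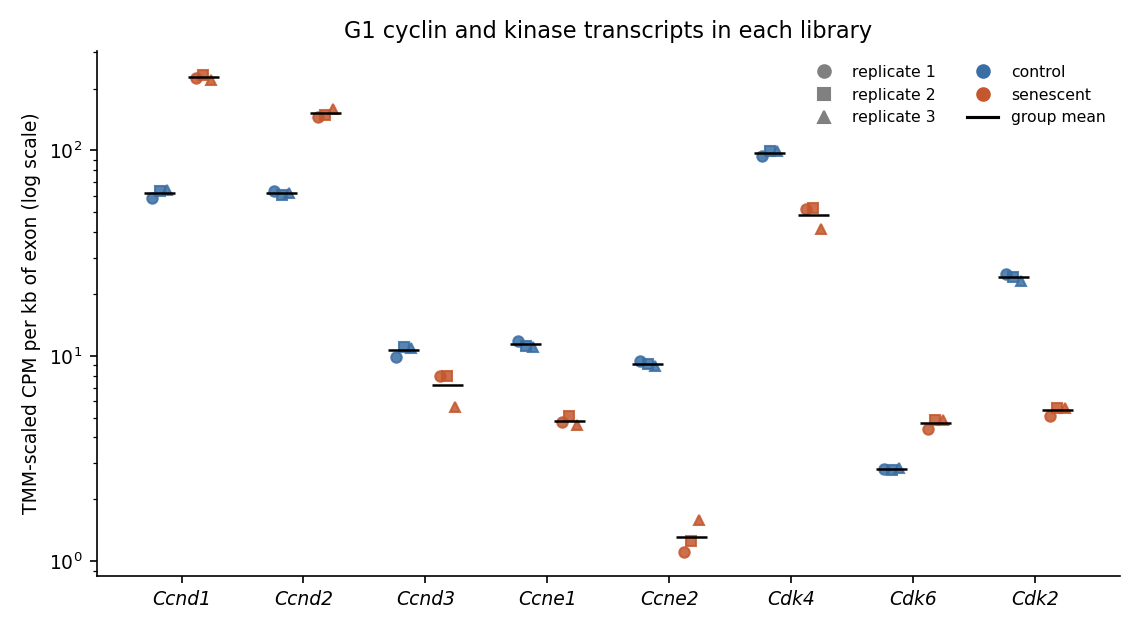
TMM-scaled CPM per kilobase of exon (log axis) of the 8 genes in every library. Circles, squares and triangles are replicates 1, 2 and 3, blue is control, orange is senescent, and bars are group means of 3 samples. *Ccnd1* and *Ccnd2* start together near 62 and separate in senescent cells, at 227 and 151.

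*Ccnd1* (ENSMUSG00000070348, chromosome 7 of mm10 from 144929931 to 144939869) encodes cyclin D1. It was at 224.5, 242.6 and 245.4 CPM, scaled by the trimmed mean of M values (TMM), in control replicates 1, 2 and 3 and at 867.5, 897.3 and 848.1 CPM in senescent replicates 1, 2 and 3. The groups were far apart, and the senescent libraries lay close together. The log2 fold change was 1.87 (SE 0.06, 95% confidence interval 1.74 to 2.01, edgeR adjusted p = 1.06e-07), and *Ccnd1* moved from rank 706 to rank 99 among tested genes by mean CPM. The gene shares 1100 exon bases with *Oraov1* on the opposite strand in GENCODE, which had 1246 to 1483 counts in control and 1354 to 1828 in senescent libraries, while *Ccnd1* itself had 11200 to 14494 and 48081 to 71577.

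*Ccnd2* (ENSMUSG00000000184, chromosome 6 from 127125779 to 127151048) encodes cyclin D2. Its level was 360.1, 347.2 and 353.9 CPM in control replicates 1, 2 and 3 and 832.8, 846.4 and 908.0 CPM in senescent replicates 1, 2 and 3. The controls lay close together, and senescent replicate 3 was the highest library. Its log2 fold change was 1.29 (SE 0.06, 95% confidence interval 1.154 to 1.418, edgeR adjusted p = 5.21e-07), and the rank by mean CPM went from 405 to 102.

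*Ccnd3* (ENSMUSG00000034165, chromosome 17 from 47505051 to 47599691), which encodes cyclin D3, was the D cyclin that fell. Control replicates 1, 2 and 3 had 86.21, 96.93 and 96.17 CPM, and senescent replicates 1, 2 and 3 had 70.26, 69.69 and 49.42 CPM. Senescent replicate 3 lay well below the other senescent libraries, and the senescent coefficient of variation was 18.8%, against 6.42% in control cells. A log2 fold change of -0.56 (SE 0.13, 95% confidence interval -0.87 to -0.25, edgeR adjusted p = 0.00603) was the smallest of the 8 genes in size, and 51.0% of tested genes had a larger one. Without senescent replicate 3 it was -0.41 (edgeR adjusted p = 2.11e-06). *Bysl*, on the opposite strand and with 361 shared exon bases, went from 973 to 1443 counts in control to 2405 to 3512 in senescent libraries. The strand setting of the authors' counting is not given in the sources used here, and the part of *Bysl* reads in the *Ccnd3* value was not tested.

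Because levels of different genes can be compared only per length, CPM were divided by the exon length in kilobases that the deposited table gives. On this scale the 3 D cyclins summed to 135 ± 2.79 CPM per kb in control and 386 ± 5.06 in senescent cells (SD, n = 3 per group), 2.86-fold higher. *Ccnd1* and *Ccnd2* contributed nearly equal parts in control cells, 46.0% ± 1.29 and 46.1% ± 1.65, and 58.9% ± 1.42 and 39.2% ± 1.76 in senescent cells. *Ccnd3* made up 7.88% ± 0.366 of D cyclin transcripts in control and 1.87% ± 0.354 in senescent cells. For each of these shares, the groups did not overlap, and the two-sided exact permutation test gave p = 0.1, the smallest p that 3 samples against 3 allow. The near equality in control cells depended on the length, since with the longest transcript in GENCODE the control shares of *Ccnd1* and *Ccnd2* were 44.2% and 39.0%, and without any length 34.7% and 51.7%. The *Ccnd1* share was higher in senescent cells under each of these choices. No length could change this, since *Ccnd1* rose more than *Ccnd2* and *Ccnd3* fell.

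**Figure D2:**
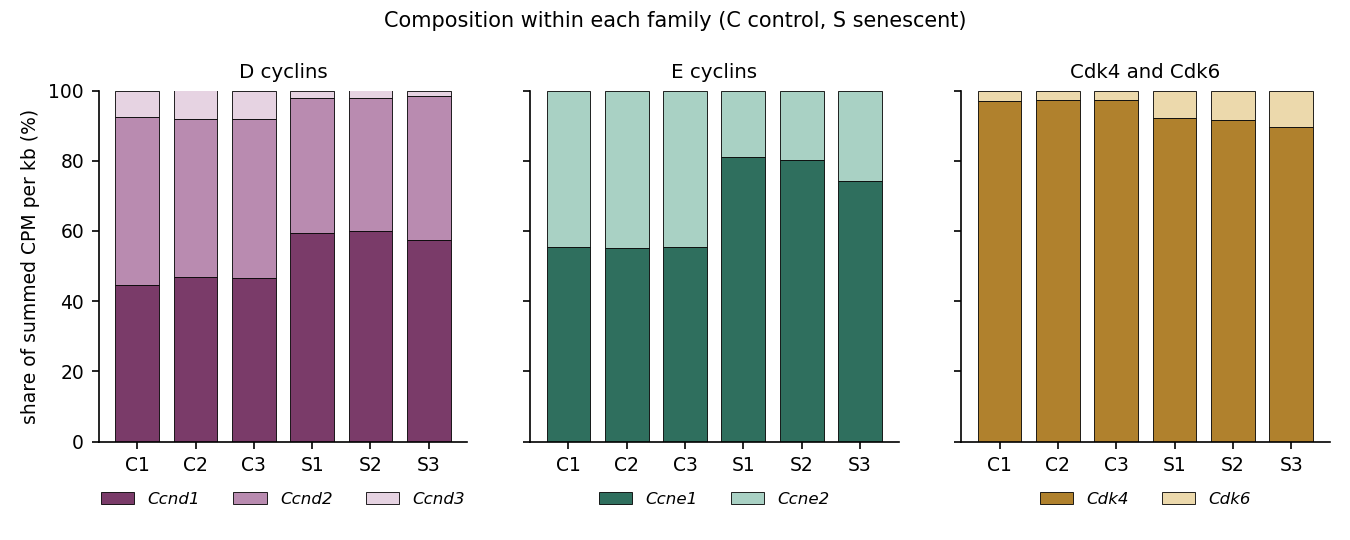
Share (%) of each gene in the summed CPM per kb of its family, for control (C) and senescent (S) replicates 1 to 3. *Ccnd3* shrinks from 7.88% to 1.87% of the D cyclins, *Ccne1* grows from 55.3% to 78.5% of the E cyclins, and *Cdk6* grows from 2.80% to 8.97% of *Cdk4* plus *Cdk6* (group means).

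The E cyclins fell by unequal amounts. *Ccne1* (ENSMUSG00000002068, cyclin E1, chromosome 7 from 38097984 to 38107534) was at 31.46, 29.87 and 29.37 CPM in control replicates 1, 2 and 3. Senescent replicates 1, 2 and 3 had 12.61, 13.59 and 12.19 CPM, well below every control value. *Ccne1* thus had a log2 fold change of -1.24 (SE 0.07, 95% confidence interval -1.41 to -1.07, edgeR adjusted p = 2.91e-06).

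*Ccne2* (ENSMUSG00000028212, cyclin E2, chromosome 4 from 11191351 to 11204779) had the largest decrease of the 8 genes. It was at 33.06, 31.90 and 31.16 CPM in control and at 3.88, 4.38 and 5.54 CPM in senescent replicates 1, 2 and 3. The log2 fold change was -2.79 (SE 0.13, 95% confidence interval -3.09 to -2.49, edgeR adjusted p = 7.78e-07), and 8.39% of tested genes had a larger change in either direction. Senescent replicate 3 was the highest of its group, and without it the log2 fold change was -2.94. *Ccne2* remained above the counting limit, with 215, 347 and 468 counts in the senescent libraries, where a count of 0 allows up to 3 counts. It shares 609 exon bases with *Ints8* on the opposite strand, which had 3793 to 6428 counts in senescent libraries, and the part of *Ints8* reads in the *Ccne2* value was not tested.

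Per kilobase, the E cyclins summed to 20.5 ± 0.682 CPM in control and 6.12 ± 0.258 in senescent cells (SD, n = 3 per group). *Ccne1* made up 55.5%, 55.1% and 55.3% of this sum in control replicates 1, 2 and 3 and 81.0%, 80.3% and 74.3% in senescent replicates 1, 2 and 3 (exact permutation p = 0.1, two-sided). The controls were alike to within 1 percentage point, and senescent replicate 3 again stood apart. Without that library the mean senescent share was 80.7%. D cyclins exceeded E cyclins by 6.57 ± 0.350 times in control and 63.0 ± 1.85 times in senescent cells, without overlap (exact permutation p = 0.1). This ratio was not planned.

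*Cdk4* (ENSMUSG00000006728, chromosome 10 from 127063534 to 127067920), the main partner kinase of D cyclins in these cells by transcript level, was at 306.4, 322.9 and 321.4 CPM in control replicates 1, 2 and 3. It was at 167.8, 169.8 and 134.8 CPM in senescent replicates 1, 2 and 3, so the groups were far apart and senescent replicate 3 was the lowest. The log2 fold change was -1.01 (SE 0.09, 95% confidence interval -1.22 to -0.79, edgeR adjusted p = 3.47e-05). This lies just past the fold limit of the study's methods, and over 14 alternative settings it ranged from -1.06 to -0.90. It no longer passed that limit with RLE, upper-quartile or library size scaling, with at least 10 counts required in every library, with DESeq2, without control replicate 2 (-0.997) and without senescent replicate 3 (-0.901). *Tspan31* shares 641 exon bases with *Cdk4* on the opposite strand and had 6046 to 7682 counts in control and 6503 to 9595 in senescent libraries, against 15280 to 19298 and 9299 to 13456 for *Cdk4*.

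*Cdk6* (ENSMUSG00000040274, chromosome 5 from 3343893 to 3523218), which encodes the other kinase that D cyclins activate, went the other way. Control replicates 1, 2 and 3 had 10.49, 10.33 and 10.65 CPM, and senescent replicates 1, 2 and 3 had 16.47, 18.21 and 18.19 CPM. Its log2 fold change was 0.75 (SE 0.08, 95% confidence interval 0.57 to 0.93, edgeR adjusted p = 5.72e-05). *Cdk6* was 1.68-fold higher and stayed far below *Cdk4* in every library. The deposited gene model of *Cdk6* holds 3735 exon bases and ends 7790 bases before the GENCODE model, whose longest transcript has 11525 bases, so the values cover only part of the annotated gene.

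*Cdk4* and *Cdk6* together summed to 100.3 ± 2.82 CPM per kb in control and 53.2 ± 5.93 in senescent cells (SD, n = 3 per group). The *Cdk6* share of this sum was 2.89%, 2.71% and 2.80% in control replicates 1, 2 and 3 and 7.87%, 8.53% and 10.5% in senescent replicates 1, 2 and 3 (exact permutation p = 0.1). With the longest transcripts in place of the deposited lengths, the mean shares were 0.586% and 1.98%. Here *Cdk6* counts from 3735 exon bases were divided by 11525 bases, and this mismatch lowers the share. The direction between the groups could not depend on the lengths, which were the same in both.

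*Cdk2* (ENSMUSG00000025358, chromosome 10 from 128697939 to 128705051), the partner kinase of E cyclins, was at 60.65, 58.62 and 56.42 CPM in control replicates 1, 2 and 3. Senescent replicates 1, 2 and 3 had 12.38, 13.57 and 13.61 CPM, far below every control value, and none stood apart. The log2 fold change was -2.15 (SE 0.07, 95% confidence interval -2.31 to -1.99, edgeR adjusted p = 1.10e-07), and 12.3% of tested genes changed more. The overlap with *Pmel* on the opposite strand is 34 exon bases, and *Pmel* had at most 56 counts in any library, against at least 686 for *Cdk2*.

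**Figure D3:**
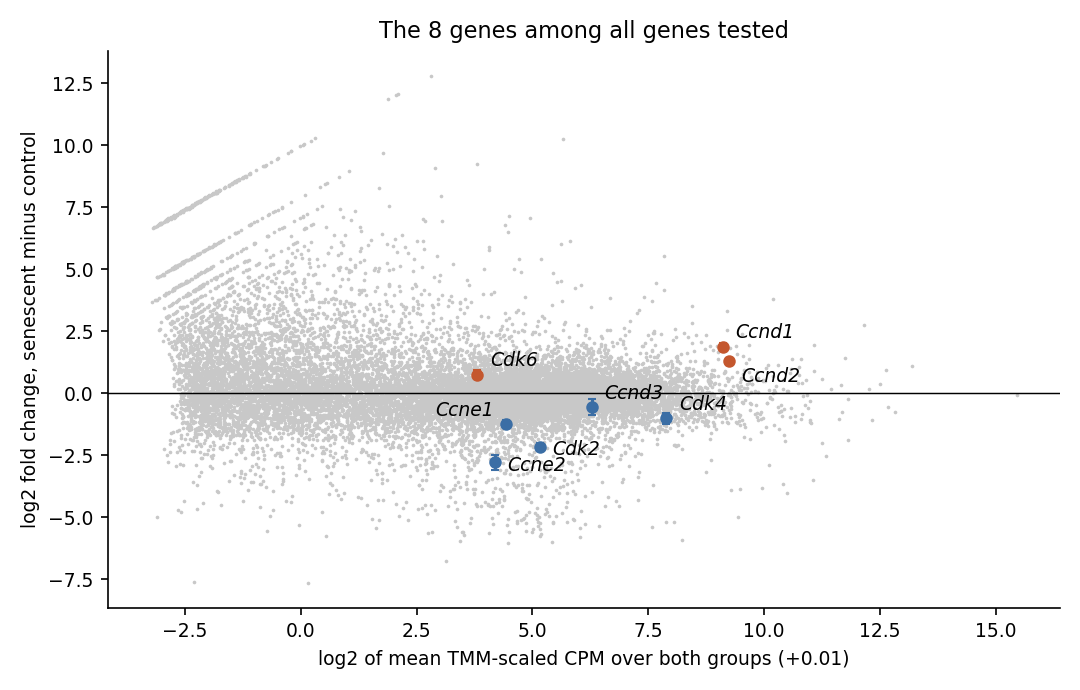
Log2 fold change of the 17589 tested genes (grey) against log2 mean CPM, with the 8 genes in orange (higher in senescent cells) or blue (lower) and their 95% confidence intervals. *Ccnd1* and *Ccnd2* lie among the most abundant genes, and *Ccne2* and *Cdk2* lie at the lower edge of the main cloud.

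The order of the 8 transcripts per kilobase changed between the groups. In control cells *Cdk4* came first at 97.5 ± 2.82 CPM per kb, followed by *Ccnd2* and *Ccnd1* at 62.0 ± 1.14 and 61.9 ± 2.95, whose values overlapped (SD, n = 3). *Cdk2* at 24.1 ± 0.869 came next, then *Ccne1* and *Ccnd3* at 11.4 ± 0.410 and 10.6 ± 0.681, which also overlapped, *Ccne2* at 9.17 ± 0.274 and *Cdk6* at 2.81 ± 0.0431. In senescent cells *Ccnd1* came first at 227 ± 6.47 CPM per kb, before *Ccnd2* at 151 ± 7.03 and *Cdk4* at 48.5 ± 6.04, with no overlap between these neighbours. *Ccnd3* at 7.19 ± 1.35 and *Cdk2* at 5.42 ± 0.288 did not overlap, although the lowest *Ccnd3* value, 5.63, was close to the highest *Cdk2* value, 5.60. *Cdk2*, *Ccne1* (4.81 ± 0.270) and *Cdk6* (4.72 ± 0.267) overlapped with their neighbours, and *Ccne2* was last at 1.32 ± 0.245. Parts of this order rest on the deposited lengths. With the longest transcripts, *Ccnd3* was above *Cdk2* and *Ccne1* in control cells, at 24.1 ± 1.55, 17.9 ± 0.648 and 15.1 ± 0.545 CPM per kb, and *Ccnd1* was above *Ccnd2* without overlap. In senescent cells *Cdk6* was then at 1.53 ± 0.0865 and overlapped with *Ccne2* at 1.53 ± 0.284. The *Cdk6* counts cover 3735 exon bases, against 11525 in its longest transcript, so this value cannot rank it. On the deposited lengths, senescent *Cdk6* was at 4.41 to 4.88 CPM per kb and *Ccne2* at 1.11 to 1.59, without overlap.

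The ratio of cyclins to partner kinases was followed within each library. D cyclins over *Cdk4* plus *Cdk6* were 1.35, 1.32 and 1.35 in control replicates 1, 2 and 3 and 6.79, 6.83 and 8.32 in senescent replicates 1, 2 and 3, 5.45-fold higher on average (exact permutation p = 0.1). The groups were far apart, and senescent replicate 3 was the highest. Without it the senescent mean was 6.81. The ratio was 4.98 and 10.4 in senescent cells with the longest transcripts and without length, beside 0.924 and 2.09 in control cells. E cyclins over *Cdk2*, a ratio that was not planned, differed far less. It was 0.852 ± 0.00787 in control and 1.13 ± 0.0251 in senescent cells (SD, n = 3 per group), again without overlap (exact permutation p = 0.1).

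CDK inhibitors, which oppose these kinases, changed in both directions. Of the 7 genes, 3 were higher (*Cdkn1a*, *Cdkn2a*, *Cdkn2b*) and 4 lower (*Cdkn1b*, *Cdkn1c*, *Cdkn2c*, *Cdkn2d*) at an edgeR adjusted p under 0.05. Of all tested genes, 36.2% were higher and 34.1% lower at this threshold. *Cdkn1c* (edgeR adjusted p = 0.0237) was the weakest, and its call was lost in 5 of 14 alternatives (adjusted p up to 0.092), among them upper-quartile and library size scaling and the fits without control replicate 3 or senescent replicate 1. *Cdkn1a*, which encodes p21, went from 123 ± 2.01 to 619.5 ± 16.3 CPM (SD, n = 3 per group), and *Cdkn2a*, whose counts pool p16 and p19ARF, from 1.204 ± 0.0738 to 4.499 ± 1.503 CPM. *Cdkn2b*, which encodes p15, had a log2 fold change of 1.76, and *Cdkn1c*, which encodes p57, one of -0.34. *Cdkn1b*, *Cdkn2c* and *Cdkn2d*, which encode p27, p18 and p19INK4D, had log2 fold changes of -1.77, -1.62 and -2.42.

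Ratios of inhibitors to kinases were chosen after the values had been seen. The INK4 genes *Cdkn2a* to *Cdkn2d* over *Cdk4* plus *Cdk6*, per kilobase, were 0.476 ± 0.0165 in control and 0.486 ± 0.0184 in senescent cells (SD, n = 3 per group), with overlapping groups (exact permutation p = 0.5). Without length the same ratio was 0.291 ± 0.00926 and 0.257 ± 0.0182, lower in senescent cells and without overlap (exact permutation p = 0.1). With the longest transcripts it was 0.310 ± 0.0106 and 0.350 ± 0.0153, higher in senescent cells and without overlap (exact permutation p = 0.1), so its direction depends on the lengths. The INK4 sum joins genes that moved in opposite directions. Per kilobase, mean *Cdkn2a* went from 1.03 to 3.84 CPM, p19ARF reads included, and *Cdkn2b* from 3.07 to 10.4. *Cdkn2c* went from 24.2 to 7.9 and *Cdkn2d* from 19.4 to 3.63. The CIP/KIP genes *Cdkn1a* to *Cdkn1c* over *Cdk2* were 3.42 ± 0.152 in control and 53.2 ± 2.46 in senescent cells, 15.5-fold higher (exact permutation p = 0.1). Over the D cyclins the same sum was 0.612 ± 0.00753 and 0.747 ± 0.0112, 1.22-fold higher (exact permutation p = 0.1). *Cdkn1a* alone made up 278.7 of the summed 287.9 CPM per kb in senescent cells.

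**Figure D4:**
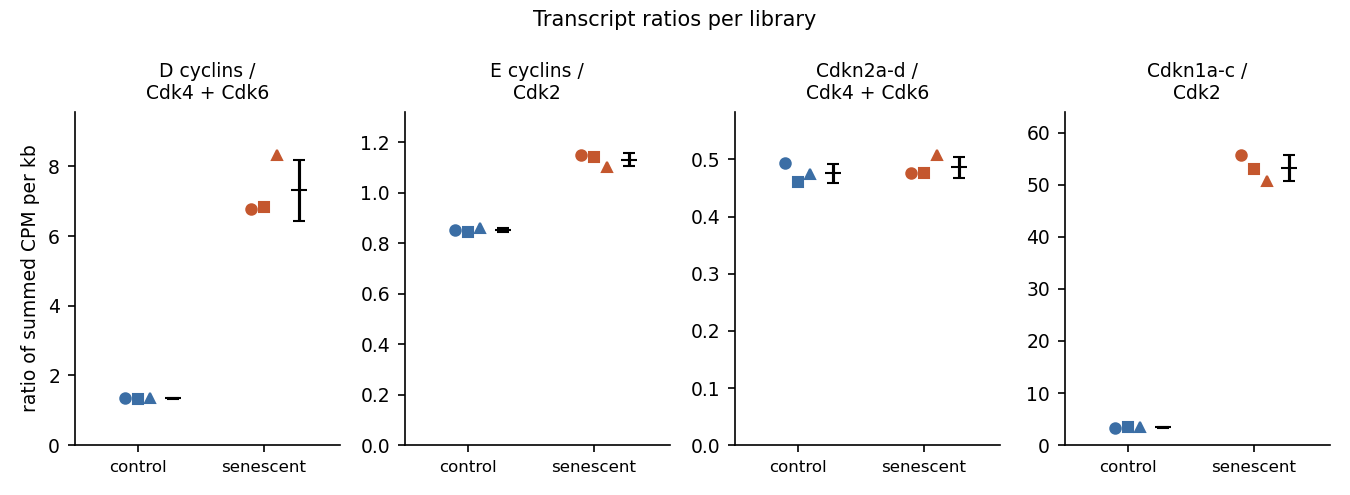
Ratios of summed CPM per kb in each library (points, shapes as replicates 1 to 3) with mean and SD of 3 samples per group beside them; every axis starts at 0. D cyclins over *Cdk4* plus *Cdk6* go from 1.34 to 7.31 and CIP/KIP genes over *Cdk2* from 3.42 to 53.2. The INK4 ratio lies between 0.46 and 0.51 with the deposited lengths shown here, and its direction changes with other lengths.

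Lists of genes that act after the G1 kinases were examined next. Counts in these and the later lists are read against all tested genes, of which 36.2% were higher and 34.1% lower. Of the S and M phase list, all 5 tested genes were lower, with a median log2 fold change of -5.18. *Ccna2* (cyclin A2) fell from 169 ± 4.15 to 4.08 ± 0.561 CPM (SD, n = 3 per group), *Cdk1* had a log2 fold change of -3.60, and *Ccnb1* and *Ccnb2*, the B cyclins, had -5.18 and -5.48. *Ccna1* (6 to 10 counts in control and 0 to 2 in senescent libraries) and *Ccnb3* (0 counts in each control and 1 to 6 in senescent libraries) had too few counts for a test. All 20 genes listed for S phase entry were lower, with a median of -2.68, among them *Mcm5*, *Mcm3* and *Mcm6* of the replicative helicase (-4.16, -3.03 and -2.93) and *Rrm1* of ribonucleotide reductase (-3.18).

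Of the 13 E2F, DP and pocket protein genes, 8 were lower, 3 higher and 2 did not pass (median -0.43). The genes with the smallest p were *E2f8*, *E2f7* and *E2f2*, with log2 fold changes of -4.52, -4.38 and -2.38, and *Rbl1*, which encodes the pocket protein p107, with -2.26. The list of CDK activating and inhibiting enzymes, which also holds the cyclin *Ccnh*, the assembly factor *Mnat1* and the chaperone *Cdc37*, had 6 of 9 genes lower and 2 higher (median -0.28). The phosphatases *Cdc25b* and *Cdc25c*, which activate CDKs, had log2 fold changes of -2.98 and -4.65, and the inhibitory kinases *Pkmyt1* and *Wee1* -4.44 and -1.49.

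Genes for turnover of D and E cyclins were split, as were all tested genes (36.2% higher and 34.1% lower). Of 15, 4 were higher, 5 lower and 6 did not pass (median -0.05). Over 14 alternatives 3 to 5 were higher, and 4 rather than 5 were lower in 11 of them, *Cul4b* (edgeR adjusted p = 0.0472) being the call lost. *Fbxw7*, whose product marks cyclin E for degradation, rose from 17.5 ± 0.455 to 28.02 ± 0.894 CPM (SD, n = 3 per group, log2 fold change 0.68). *Skp2* and *Cks1b*, which serve the ubiquitin ligase that removes p27, and *Cks2*, a relative of *Cks1b*, fell with log2 fold changes of -1.58, -1.57 and -2.29.

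AP-1 factors are known to act on the cyclin D1 gene in other cells. Of 7 subunit genes, 4 were higher, 2 lower and 1 did not pass (median 0.55), and 1 rather than 2 was lower without control replicate 2. *Fosl1* rose from 22.8 ± 2.56 to 87.1 ± 17.3 CPM (SD, n = 3 per group, log2 fold change 1.93), and *Jun* and *Fosl2* had log2 fold changes of 0.98 and 0.55, whereas *Fos* had -0.80. Other cyclins and CDKs, some of which act in transcription or outside the cell cycle, formed the last list. Of 25 tested genes, 10 were higher and 5 lower (median 0.11), beside 36.2% and 34.1% of all tested genes. Without senescent replicate 3, 12 were higher and 9 lower. Without any of control replicates 1, 2 and 3 or senescent replicate 1, 7 were higher. *Ccng1*, a p53 target, rose from 191 ± 3.96 to 722 ± 104 CPM, and *Ccng2*, *Cdk19* and *Ccnl2* had log2 fold changes of -1.40, -1.72 and -0.99.

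**Figure D5:**
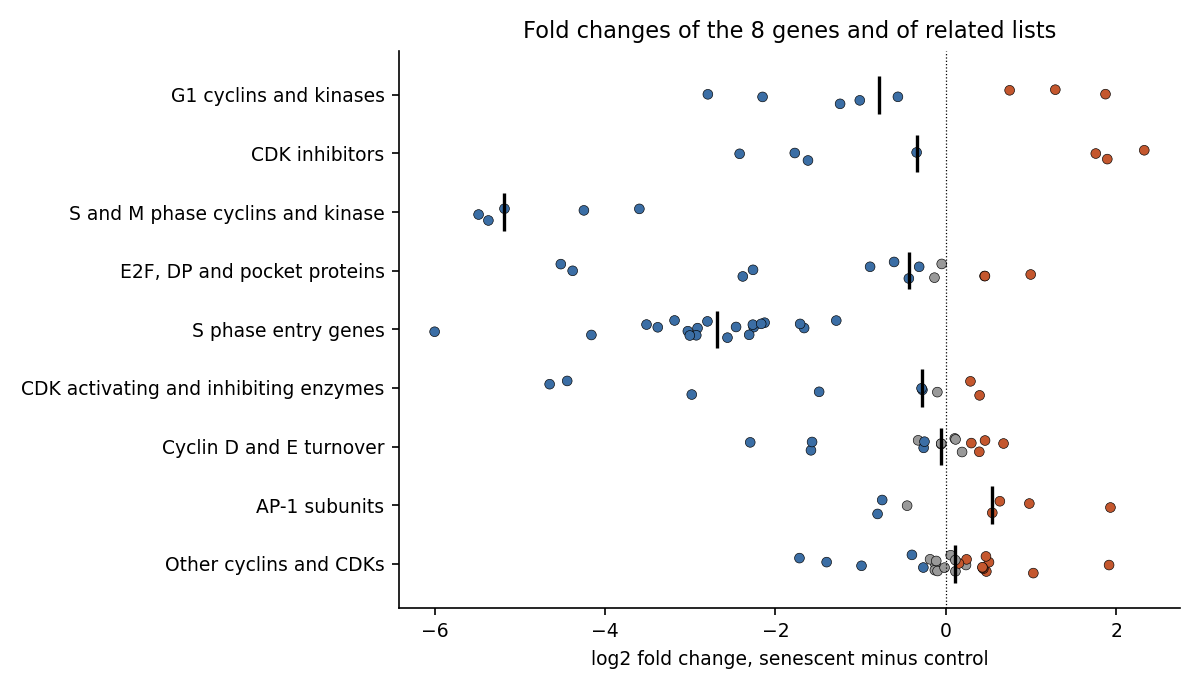
Log2 fold change of each tested gene in the 8 members and in 8 related lists, orange if higher and blue if lower at an edgeR adjusted p under 0.05, grey otherwise, with the list median as a bar. The members spread from -2.79 to 1.87, while S and M phase genes lie between -5.48 and -3.60.

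Genes whose 6 values ran closest to those of *Ccnd1* and *Ccne2* were sought in a set of 12957 genes whose mean count reached 100, by Euclidean distance of centred log2 CPM over 6 samples. Nearest to *Ccnd1* were *Renbp*, *Gm5424*, *Egr2*, *Rgmb* and *Akap12*, at distances of 0.0972 to 0.121 and with log2 fold changes of 1.86 to 1.94. Nearest to *Ccne2* were *Hapln1*, *Cenpu*, *Gsg2*, *Brca2* and *Atad2*, at 0.0706 to 0.219 and with log2 fold changes of -2.89 to -2.63. *Hapln1* encodes a cartilage link protein and *Cenpu* a centromere protein.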

How the data were processed

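RNA-seq libraries from 3 control and 3 senescent samples were analysed. Alignment by the authors used STAR and mm10 within MAPRSeq, Subread assigned read pairs to genes, and the deposited table holds raw counts without normalization. Other values in that table, the exon lengths in bases, are the authors' own. Groups and replicate numbers came from the sample labels.

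Genes were filtered with filterByExpr (17589 of 43346 kept), libraries scaled by TMM (factors 0.968 to 1.03), and groups compared with the robust quasi-likelihood test of edgeR 4.0.16 in R 4.3.3, two-sided, with group as the only term and Benjamini-Hochberg adjustment over all tested genes. The common biological coefficient of variation was 0.100. Standard errors were the log2 fold change divided by the root of F. Shares and ratios were tested by exact permutation. Total counts of 50288454 to 82229553 give a limit of 0.0365 to 0.0597 CPM for 0 counts, which covers counting error alone, since reads carried no molecular identifiers.

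Alternatives were RLE, upper-quartile and library size scaling, 2 other filters, DESeq2 1.42.0, edgeR's exact test, the replicate number as a block, other gene lengths and each library left out. Medians of all genes moved by at most 0.0776 on the log2 scale between scalings. In simulated data for control against senescent cells with 17364 genes tested, 100 of 100 genes changed by 1 on the log2 scale and 70 of 100 changed by 0.5 were recovered, with 11 false calls. The changed genes all had a mean count of at least 100, and every gene was given the same spread. In the real data 70.3% of tested genes were called and spreads were uneven, so these rates do not carry over to them.

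The members and the 8 lists were chosen with earlier results of these data known. Genes named from the lists are the 7 CDK inhibitors and, elsewhere, the 4 genes with the smallest p among those with an adjusted p under 0.05. *Ccna1*, *Ccnb3*, *Ccnh*, *Mnat1*, *Cdc37*, *Cul4b*, *Cdk11b*, *Ivl*, *Dct* and the genes that overlap members were named after their values had been seen. Overlaps and transcript lengths came from GENCODE M21 on GRCm38.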

Additional observations from a re-analysis of the deposited data

How the results depend on the processing

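All 8 genes kept their direction and an adjusted p under 0.05 in each of 14 alternatives per gene (112 values), including without any of the 6 libraries. Log2 fold changes ranged from 1.83 to 1.95 for *Ccnd1*, 1.26 to 1.36 for *Ccnd2*, -0.64 to -0.41 for *Ccnd3* and 0.73 to 0.83 for *Cdk6*, and the highest adjusted p was 0.0246, for *Ccnd3*. Same-numbered control and senescent samples did not deviate together (correlations -0.145, 0.135 and -0.120, and 2 of 6 samples closest to their own number). With 3 samples per group this cannot exclude pairing by number, and the labels name no pairs. With a replicate block 3 members were higher and 5 lower, as without it, the list genes *Cdkn1c*, *Cul4b* and *Cdk11b* lost their calls, and over all genes 5964 were higher and 5660 lower, beside 6360 and 6005.

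With the longest transcripts and without length, the shares and the ratio of D cyclins to *Cdk4* plus *Cdk6* kept their direction between the groups. So did D over E cyclins (5.57 and 48.6, 11 and 103.4) and E cyclins over *Cdk2* (1.44 and 1.96, 1.06 and 1.32). CIP/KIP genes over *Cdk2* also did (4.81 and 76.1, 4.08 and 49.8), and the INK4 ratio did not. Apart from D cyclins over *Cdk4* plus *Cdk6*, these ratios were not planned, and their alternatives were chosen after seeing the data. The same lengths served both groups, so several of these directions could not have changed. They are those of the *Ccnd1*, *Ccnd3*, *Ccne1* and *Cdk6* shares, of D over E cyclins and of CIP/KIP genes over *Cdk2*. In control and senescent cells, the *Ccnd1* share of D cyclins was 44.2% and 60.4% with the longest transcripts and 34.7% and 48.5% without length, that of *Ccnd2* 39.0% and 35.4%, and 51.7% and 48.0%, and that of *Ccnd3* 16.8% and 4.24%, and 13.6% and 3.52%. The *Ccne1* share was 58.6% in control cells with the longest transcripts, and 48.5% and 73.6% without length. The *Cdk6* share was 0.586% and 1.98% with the longest transcripts, a length that the *Cdk6* counts do not cover, and 3.20% in control cells without length. D cyclins over *Cdk4* plus *Cdk6* were 0.924 and 4.98, and 2.09 and 10.4. With each library left out, the count of lower AP-1 genes ranged from 1 to 2 and that of lower other cyclins and CDKs from 4 to 9, and for both the cause was not tested. With 3 samples per group, exact permutation tests could not pass a threshold of 0.05.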
